A study of Mus musculus with 3 samples.

Results

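Among marrow cells of mice sorted for c-kit, a small set of droplet barcodes carried Jchain, the joining chain of secreted immunoglobulin polymers, at high counts. They were chosen by measured values: at least 20 Jchain UMIs (unique molecular identifiers, 1 per captured RNA molecule) and at least 1 UMI in at least 2 of Mzb1, Xbp1, Derl3 and Sdc1, among barcodes with at least 300 genes, at least 1000 UMIs and under 10% mitochondrial UMIs. The rule found 55 plasma cell-like barcodes, called members here, among 18255 passing barcodes of the control and non_mCherry libraries: 11 of 9243 in control and 44 of 9012 in non_mCherry. The whole series holds 30856 barcodes.

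Plasma cells are the antibody-secreting end stage of the B lineage. The transcription factors Irf4 and Prdm1 shut down much of the B cell program, and Xbp1 enlarges the endoplasmic reticulum (ER), where antibody chains are translocated, folded, glycosylated and quality-checked before export. In bone marrow, such cells depend on survival signals received through receptors that include Tnfrsf17 (BCMA), and long-lived ones do not divide.

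The series is about fatty acid metabolism and blocked differentiation in pre-leukemic marrow with Runx1-Runx1t1, known as AML1-ETO, a fusion found in acute myeloid leukemia. All 3 libraries are C57BL/6 bone marrow sorted as DAPI-negative, Lin-negative and c-kit-positive. Control cells are from 1 wild-type animal. The non_mCherry library is the reporter-negative fraction of another mouse, which carried Mx1-Cre and a heterozygous conditional Runx1-Runx1t1 knock-in with mCherry downstream and was induced with poly(I:C). The mCherry library is the reporter-positive fraction of that same mouse. Mx1-Cre is driven by an interferon-responsive promoter, so recombination is not limited to 1 blood cell type. Non_mCherry cells carry both alleles but, per the labels, did not respond to the induction. Whether poly(I:C) was also given to the wild-type mouse is not stated in the labels. Each group is 1 library of 1 mouse, so no difference here has a replicate check and no test was run. Intervals are exact 95% intervals of the counts and cover counting error only.

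Jchain separated the members sharply from all other barcodes. In control members it ranged from 394 UMIs through a median of 530 to 964, and in non_mCherry members from 79 through 500 to 1146. These were 3.12%, 8.82% and 12.01% of a control member's UMIs, and 0.486%, 7.32% and 14.0% of a non_mCherry member's. Outside the members the highest Jchain count was 2 UMIs in control and 1 in mCherry. In non_mCherry it was 64, in a barcode of 24133 UMIs that had 6 Mzb1 UMIs and none of the other partner genes, followed by a barcode with 8. No barcode held 10 to 19 Jchain UMIs, so the nearest values inside and outside the threshold were 79 and 8, apart from that single barcode with 64. The members held 98.9% of all Jchain UMIs in passing control barcodes and 97.8% in non_mCherry. These values chose the members and are given as a description. In mm10, Jchain is on the minus strand of chromosome 5, between 88519809 and 88527891.

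**Figure D1:**
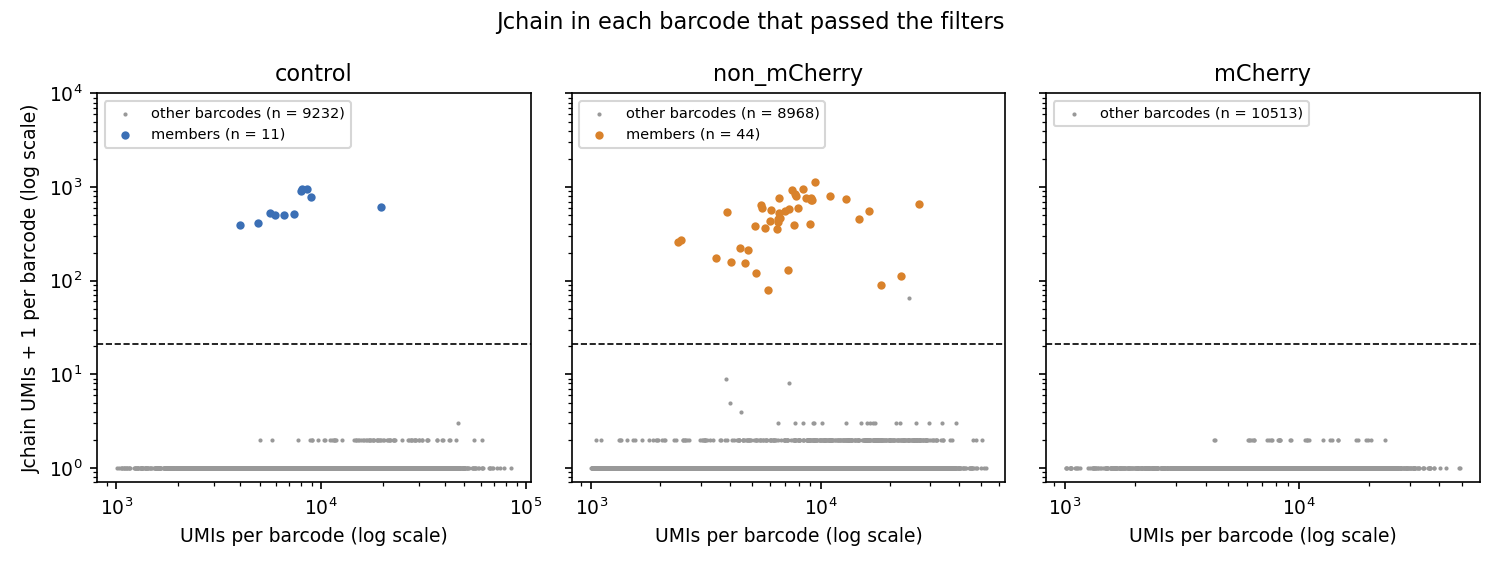
Jchain UMIs plus 1 (vertical, log scale) against all UMIs (horizontal, log scale) of each passing barcode, in 1 panel per library, with members coloured and the dashed line at the threshold of 20 UMIs. Members start at 394 UMIs in control and 79 in non_mCherry, and nearly all other barcodes lie at 0, 1 or 2.

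The partner genes of the rule were seldom missing. All 4 had a UMI in 8 of 11 control and 39 of 44 non_mCherry members, 3 of them in 2 and 5 members, and 2 of them in 1 control member. Mzb1, an ER chaperone partner of B and plasma cells, had 4 to 36 UMIs (median 20) in control members and 1 to 106 (median 15) in non_mCherry members. Xbp1 had 1 to 27 (median 10) and 1 to 43 (median 11.5). Derl3, a channel component of ER-associated degradation, had medians of 2 and 3 UMIs, and Sdc1, the CD138 surface antigen used to sort plasma cells, a median of 2 in both.

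Members made up 0.119% of passing control barcodes (95% Clopper-Pearson interval 0.0594 to 0.213) and 0.488% of passing non_mCherry barcodes (0.355 to 0.655), a ratio of 4.10. No mCherry barcode of 10513 met the rule, which allows a share of up to 0.0285% by the limit of 3 counts and 0.0351% by the Clopper-Pearson interval. With every barcode thinned to 2000 UMIs, the shares were 0.121% and 0.469%, from 11 and 38 members, after 136 control and 910 non_mCherry barcodes too shallow for thinning were left out. Unthinned, the same barcodes gave 0.121% and 0.543%. With 5000 UMIs they were 0.105% and 0.544%, after 2 control and 8 non_mCherry members were left out as too shallow. The 2 libraries differed in makeup, since 2830 non_mCherry barcodes but 48 control barcodes carried the pre-B receptor (Cd79a with the surrogate light chain genes Igll1 or Vpreb1). With barcodes that had a Cd79a UMI and were no members taken out of the denominator, the shares were 0.120% and 0.787%. A share of sorted cells depends on the gate and on what else passed it, which cannot be told apart here from the abundance in marrow.

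Members had fewer UMIs than their surroundings. Their medians were 7399 UMIs (4029 to 19639) in control and 6820 (2391 to 26835) in non_mCherry, against 15396 and 8394 in other barcodes, with 2067 and 1963.5 genes against 3709 and 2571. Mitochondrial UMIs were at a median of 3.58% in control and 2.14% in non_mCherry members, against 1.87% and 1.91%. Between libraries, 24 to 42 barcode sequences were shared per pair, and none of these was a member. Erythroid barcodes, which should lack the gene, had a Jchain UMI in 1.64% (control, median 23446.5 UMIs) and 8.66% (non_mCherry, median 19778 UMIs) of cases, against 0.834% and 4.33% of all non-members, so single Jchain UMIs outside the members are at the level of background. Of the 138 Jchain UMIs in non_mCherry erythroid barcodes, 64 lay in 1 barcode, the non-member with 64 described above.

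A few members also carried markers of another cell class. The classes counted were granulocyte-monocyte progenitors, monocytes, neutrophils, erythroid cells, megakaryocytes, basophils and mast cells, T, natural killer and innate lymphoid cells, and stem cells. With at least 20 UMIs summed over the markers of 1 of these 8 classes, the members were 1 of 11 in control and 4 of 44 in non_mCherry. The B lineage and plasmacytoid dendritic lists, described with the marker check, were not counted, nor was the eosinophil list, because its gene Prg2 was seen in most members and reached 58 UMIs in 1 control member. The control one was the deepest member, with 19639 UMIs and 934 UMIs of granulocyte-monocyte progenitor markers, among them 378 of Elane and 111 of Mpo. The non_mCherry ones had 14742 to 26835 UMIs, and their counts of the other class were 20 to 478. The other 10 control members had 4029 to 8910 UMIs and the other 40 non_mCherry members 2391 to 16166. No member had a Scrublet doublet score above 0.25, which 2.43% and 2.54% of other barcodes did. Whether these 5 barcodes hold 2 cells was not tested. Values without them are given below for the genes and lists named there.

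**Figure D2:**
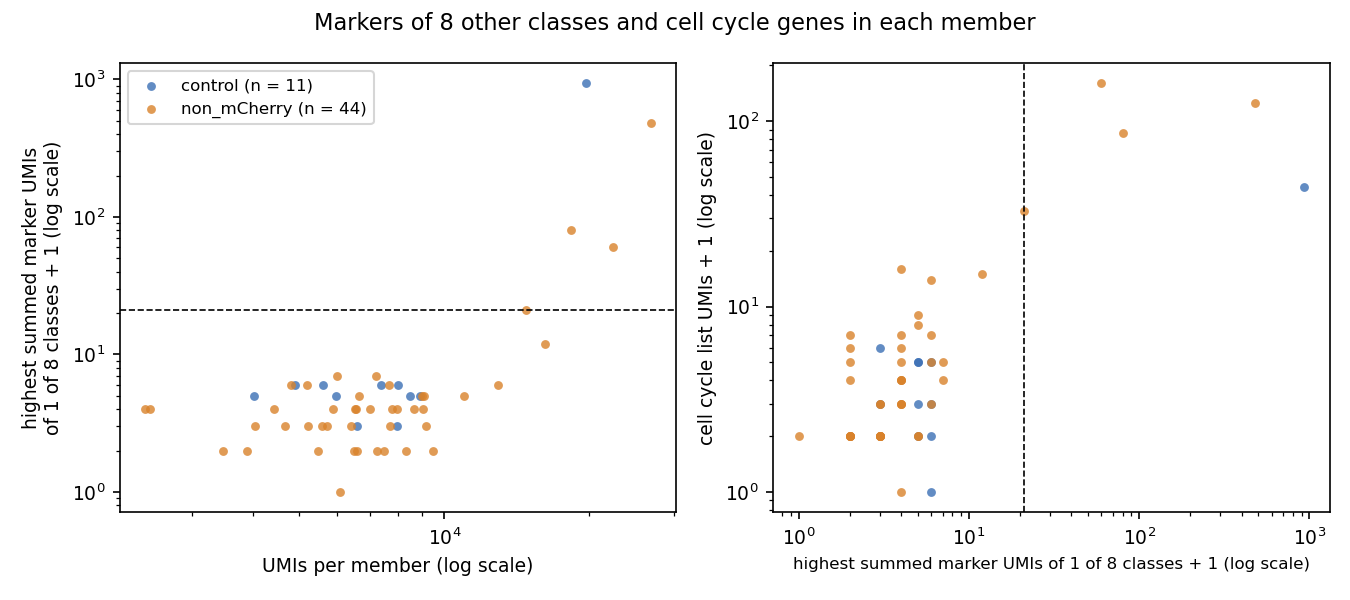
Left, the highest summed marker UMIs of 1 of the 8 classes counted (B lineage, plasmacytoid dendritic and eosinophil lists not among them) plus 1 against all UMIs of each member. Right, the summed UMIs of the cell cycle list plus 1 against that same marker sum. All axes are log scales, dashed lines mark 20 UMIs, and the 5 members at or past the line, 1 control and 4 non_mCherry, are also the 5 with the most cell cycle UMIs.

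The label was checked against marker lists of neighbouring types. Of the 12 plasma cell markers, 5 were used by the rule, and the other 7 (Prdm1, Irf4, Tnfrsf17, Fkbp11, Txndc5, Edem1 and Eaf2) were detected in members of both libraries. Plasmacytoid dendritic cells are known to share several secretory genes with plasma cells. Of 10 markers of that type, Siglech, Klk1, Spib and Cd209d were at 0 in members of both libraries. Other barcodes had little of these too, with at most 0.901 CPM (UMIs per 1000000 outside Jchain) apart from Spib at 8.63 CPM in non_mCherry. Against other barcodes as a whole, the zeros therefore say little at this depth. Non-members chosen for Siglech and Bst2 UMIs, 25 in control and 14 in non_mCherry, had Siglech at 291 and 278 CPM. That level follows in part from the choice. Jchain and Tnfrsf17 were at 0 UMIs in those barcodes of both libraries. Tcf4, a factor of plasmacytoid dendritic cells also used in the B lineage, was higher in members of both libraries. It was at 323 against 64.0 CPM in control and 228 against 84.9 CPM in non_mCherry. The non_mCherry log2 ratio of 1.37 fell below 2-fold, to 0.74, with means of per-barcode CPM. Cox6a2 was higher in non_mCherry members only, at 56.3 against 8.47 CPM, from 19 UMIs in 7 of 44. In control members it had 0 UMIs, against 6.25 CPM in other barcodes. Without the members that carried another class's markers, Cox6a2 was at 62.3 CPM in non_mCherry, from 16 UMIs in 5 of 40. Runx2 was lower in both libraries (log2 ratios of -2.76 and -1.18) and Irf8 in control (-1.76). The summed list took a median of 0.0671% of a control and 0.0580% of a non_mCherry member's UMIs, against 0.0338% and 0.0323% of other barcodes, and reached at most 9 and 24 UMIs.

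Markers of earlier and mature B cells were present as well. Of 10 B progenitor markers, 6 were at 0 in control members, Igll1, Pax5 and Rag1 among them, and none was at 0 over the 44 non_mCherry members. That list took a median of 0.121% of a control and 0.182% of a non_mCherry member's UMIs, against 0 and 0.0188% of other barcodes. At least 20 of its UMIs were seen in 6 non_mCherry members, at most 48, and in no control member. The mature B list reached 20 UMIs in 11 of 11 and 41 of 44 members, mostly through Cd74, which held 616 and 2400 UMIs over all members. The immunoglobulin constant genes matched no listed gene, so heavy chain class and light chain type were not analysed here.

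Levels below are CPM, UMIs of a gene per 1000000 UMIs outside Jchain, summed over the members or over all other barcodes of the same library. A gene counted as higher or lower when (CPM + 5) differed at least 2-fold and the gene reached 20 CPM in at least 1 of the sums. Of 6545 genes in control, 18.8% were higher and 25.9% lower in members, and of 6213 in non_mCherry, 11.5% and 17.6%. The median log2 ratio over these genes was -0.18 in control and -0.25 in non_mCherry. With median-of-ratios scaling, the non_mCherry counts changed from 713 higher and 1091 lower to 895 and 782. In control members 20 CPM is under 2 UMIs, so counts of called genes are noisier there. The gene groups that follow were read in the same barcodes that the rule chose, so they describe the members and test nothing.

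Plasma cell transcription factors were higher throughout. All 9 genes of the list (Xbp1 left out, since the rule used it) were higher in both libraries, with median log2 ratios of 3.61 in control and 3.40 in non_mCherry. Irf4 had 0 to 10 UMIs per control member (median 4) and 0 to 9 per non_mCherry member (median 1). It was detected in 10 of 11 and 31 of 44 members, at 559 CPM against 0.260 CPM in other control barcodes and 231 CPM against 16.6 CPM in other non_mCherry barcodes. Among pre-B receptor barcodes Irf4 was at 29.7 CPM in control and 86.4 CPM in non_mCherry. Prdm1 (BLIMP-1), the repressor that ends the B cell program, was seen in 4 of 11 and 22 of 44 members, at 87.0 and 130 CPM, against 0.200 and 0.371 CPM elsewhere. It had at most 3 UMIs in a control and 5 in a non_mCherry member, so its absence from a single member cannot be read at this depth. Pou2af1 (OCA-B), a B cell coactivator, stood at 472 and 412 CPM, and Ell2, an elongation factor that favours the secreted form of the heavy chain, at 124 and 157 CPM. Bhlha15 (MIST1), a regulator of secretory cells, was at 49.7 CPM from 4 UMIs and 35.5 CPM from 12 UMIs.

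Survival receptors and their effectors gave some of the largest ratios. Of 11 listed genes, 8 were higher in control and 8 in non_mCherry members, 7 in both. Tnfrsf17, the receptor for APRIL and BAFF, had 0 to 10 UMIs per control member (median 4) and 0 to 17 per non_mCherry member (median 5.5). It was detected in 10 of 11 and 40 of 44 members and in 0.227% and 0.178% of other barcodes, with 559 CPM against 0.147 CPM in control and 811 CPM against 0.218 CPM in non_mCherry. No erythroid barcode of either library had a Tnfrsf17 UMI. Tnfrsf13b (TACI), which binds the same ligands, was at 348 against 30.0 CPM and 299 against 37.4 CPM. Tnfrsf13c, the BAFF receptor of mature B cells, was at 199 against 1.75 CPM and 85.9 against 7.90 CPM. Cd28, a costimulatory receptor also used by plasma cells, was at 112 against 3.40 CPM and 91.8 against 3.23 CPM. Mcl1, the anti-apoptotic factor downstream of BCMA, was at 1131 against 173 CPM and 797 against 200 CPM, while Bcl2 and Bcl2l1 did not reach 2-fold in either library. The list also holds Bcl2l11 (BIM), a pro-apoptotic gene, so its counts are not of survival genes alone. Without the members that carried another class's markers, the Bcl2l11 log2 ratios were 2.68 in control and 1.76 in non_mCherry, from 8 and 17 UMIs.

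**Figure D3:**
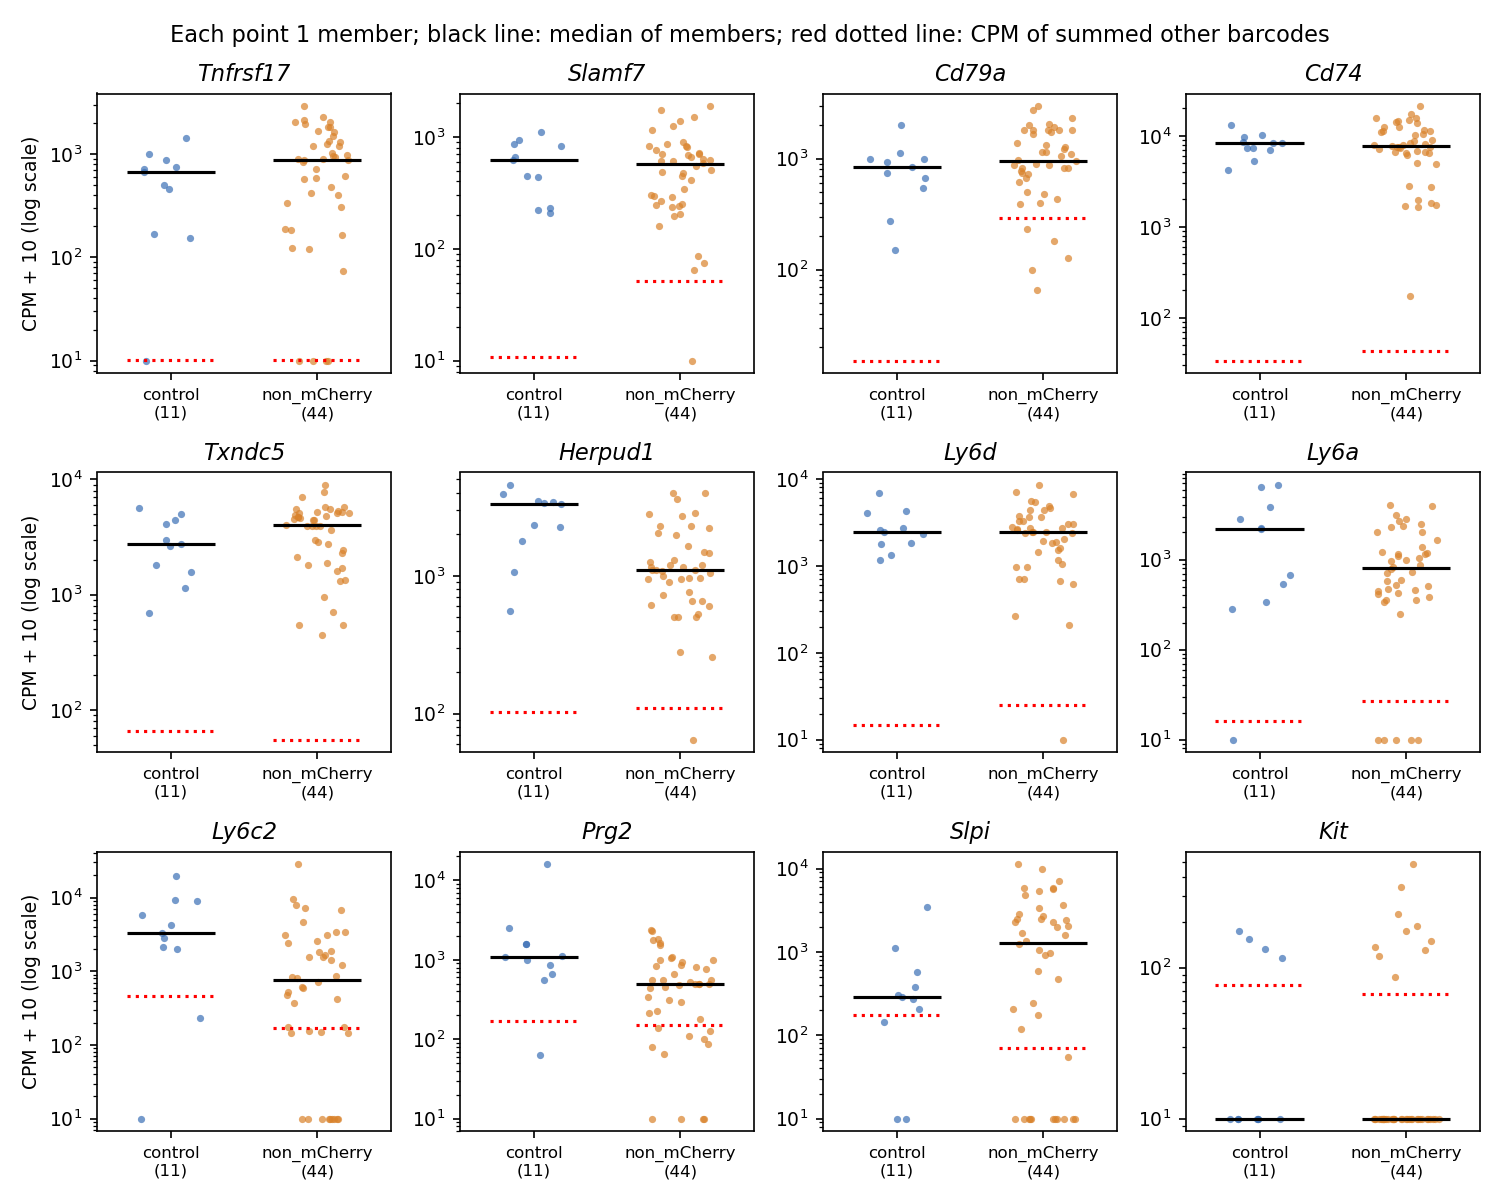
CPM plus 10 (log scale) of 12 genes in each of the 11 control and 44 non_mCherry members, with the median of members as a black line and the CPM summed over other barcodes of the library as a red dotted line. For Tnfrsf17, Ly6d, Txndc5 and Cd74 nearly all members lie above the red line in both libraries, for Ly6c2, Ly6a and Herpud1 the black line is higher in control, and for Kit most members lie at 0.

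B cell identity was mixed. Of 17 listed genes, 6 were higher and 1 lower in control members, and 4 higher and 3 lower in non_mCherry members. Only 7 of them in control and 11 in non_mCherry reached 20 CPM and could be called. The signalling chain Cd79a had 1 to 14 UMIs per control member (median 5) and 1 to 15 per non_mCherry member (median 6), and Cd79b and the adaptor Blnk were higher in both libraries too. Pax5, the factor that holds B cell identity, had 0 UMIs in control members and 1 UMI summed over the 44 non_mCherry members. Among pre-B receptor barcodes, with median depths of 7300.5 and 4127 UMIs, Pax5 was seen in 79.2% and 64.9%. Jchain itself was seen in 0 of 48 and in 2.72% of the pre-B receptor barcodes. The follicular B cell genes Cr2 and Fcer2a were at 0 in members of both libraries. Other barcodes had almost none of these either (log2 ratios of -0.06 to -0.02), so the zeros say little at this depth. The mature B cell gene Ms4a1 was higher in members of both libraries, at 137 against 0.194 CPM in control and 29.6 against 0.938 CPM in non_mCherry. Non-members with more than 1 Cd79a UMI and no Igll1 or Vpreb1 UMI had more Ms4a1 than members. They were at 300 CPM in control (19 barcodes) and 130 CPM in non_mCherry (52 barcodes).

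Antigen presentation genes did not move as 1 group. Cd74, the invariant chain, had 29 to 90 UMIs per control member (median 59) and 3 to 104 per non_mCherry member (median 51.5). Its sum was 7658 against 23.8 CPM in control and 7106 against 33.4 CPM in non_mCherry, with log2 ratios of 8.05 and 7.53. Even the lowest member of either library, at 4152 and 164 CPM, was above the summed level of the other barcodes. Nearer B lineage barcodes had much more Cd74 than that level. Non-members with more than 1 Cd79a UMI and no Igll1 or Vpreb1 UMI were at 2886 CPM in control (19 barcodes) and 882 CPM in non_mCherry (52 barcodes). H2-Ab1 was at 174 against 43.2 CPM and 267 against 66.0 CPM, and H2-Eb1 at 74.6 against 4.84 CPM and 104 against 8.34 CPM. H2-Aa, the partner chain of H2-Ab1, had 1 UMI summed over control members and 27 UMIs in 4 of 44 non_mCherry members, 24 of them in 1 member. H2-DMa, which edits the bound peptide, was at 12.4 against 131 CPM in control, from 1 UMI, and at 77.0 against 109 CPM in non_mCherry. Ciita, the class II transactivator, was at 0 in members of both libraries. Other barcodes had almost none either (log2 ratios of -0.06 and -0.11), so this zero says little.

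The ER folding list was higher as a group. Of 23 genes (Mzb1 left out), 16 were higher in control and 18 in non_mCherry, the 16 being among the 18, and none was lower, with median log2 ratios of 1.61 and 1.82. Txndc5, a disulfide isomerase of plasma cells, had 7 to 46 UMIs per control member (median 15) and 4 to 58 per non_mCherry member (median 25.5). It stood at 2685 against 55.7 CPM, 48.2-fold (41.9 to 55.2), and at 3236 against 45.2 CPM, 71.6-fold (66.9 to 76.5). No member of either library lacked it. Pdia4, another isomerase, was 11.3-fold (8.91 to 14.1) and 11.8-fold (10.4 to 13.3) higher, and Creld2 13.8-fold (10.6 to 17.6) and 12.04-fold (10.6 to 13.7). The 2 main ER chaperones differed less. Hspa5 (BiP), which binds unfolded heavy chains, was 2.86-fold (2.50 to 3.26) and 2.61-fold (2.42 to 2.80) higher, and Hsp90b1 (GRP94) 5.37-fold (4.78 to 6.02) and 4.90-fold (4.60 to 5.22). The lectin chaperones were not higher by this measure. Calr was at 1318 against 1695 CPM and 1507 against 1426 CPM, and Canx at 224 against 361 CPM and 252 against 326 CPM.

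The promoters of these genes were searched for the sites that the unfolded protein response factors ATF6 and XBP1 are known to bind, because the genes were higher together. Promoters of 19 of the 24 ER folding genes and 11 of the 15 ER-associated degradation genes were matched in the RefSeq annotation of GRCm38.p6, each from 250 bases before to 50 after the start of the gene, and both strands were read. The ER stress element, CCAAT and CCACG with any 9 bases between them, lay in 7 of the 19 and 2 of the 11, and in 37 of all 27025 genes with a promoter in the same annotation (0.137%). Its part CCACG alone lay in 18 of the 19 and 11 of the 11, but also in 35.5% of all genes. The unfolded protein response element TGACGTGG lay in 2 of the 19 and 2 of the 11, and in 0.714% of all genes. The windows below show the element in capitals in the main chaperone genes that were higher (Hspa5, Hsp90b1, Dnajc3, Creld2), in 2 that were not (Calr, Canx), in 2 degradation genes (Derl3, Syvn1) and, as TGACGTGG, in Txndc5. Each is written 5′ to 3′ on the strand given.

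Hspa5, chr2:34772005-34772063, plus strand: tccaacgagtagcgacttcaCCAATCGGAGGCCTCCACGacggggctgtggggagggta
Hsp90b1, chr10:86705618-86705676, minus strand: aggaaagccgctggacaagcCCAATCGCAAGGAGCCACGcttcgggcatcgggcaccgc
Dnajc3, chr14:118937807-118937865, plus strand: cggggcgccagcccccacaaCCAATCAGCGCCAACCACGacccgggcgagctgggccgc
Creld2, chr15:88819500-88819558, minus strand: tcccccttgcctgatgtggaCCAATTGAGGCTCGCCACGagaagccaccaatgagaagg
Calr, chr8:84847055-84847113, plus strand: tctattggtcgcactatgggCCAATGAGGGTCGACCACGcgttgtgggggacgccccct
Canx, chr11:50325780-50325838, minus strand: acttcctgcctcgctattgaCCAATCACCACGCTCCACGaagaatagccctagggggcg
Derl3, chr10:75893222-75893280, minus strand: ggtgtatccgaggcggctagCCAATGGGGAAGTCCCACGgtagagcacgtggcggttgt
Syvn1, chr19:6046512-6046570, plus strand: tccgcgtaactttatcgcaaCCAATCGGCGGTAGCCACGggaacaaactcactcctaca
Txndc5, chr13:38528025-38528072, minus strand: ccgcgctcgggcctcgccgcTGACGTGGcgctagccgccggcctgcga

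The same letters therefore stood before genes with different ratios. Calr and Canx held the full element and were within 2-fold of other barcodes in both libraries, while Hspa5, Hsp90b1, Dnajc3 and Creld2 held it and were higher in both. A match of letters is a description, not a bound site.

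ER-associated degradation, which returns misfolded chains to the cytosol, was higher in 11 of 14 genes in control and 9 of 14 in non_mCherry (Derl3 left out), with median log2 ratios of 2.37 and 2.01. Sel1l, the scaffold of the ubiquitin ligase, was 38.0-fold (30.1 to 47.5) and 30.7-fold (26.7 to 35.1) higher. Edem1, which trims mannose from misfolded glycoproteins, was 14.96-fold (10.4 to 20.8) and 26.8-fold (23.1 to 30.9) higher. Herpud1, a stress-induced partner of the same ligase, had 2 to 32 UMIs per control member (median 18) and 1 to 26 per non_mCherry member (median 7). Vcp, the ATPase that extracts the chains and that all cells use, did not reach 2-fold in either library.

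Entry into the ER was higher in 11 of 20 listed genes in control and 13 of 20 in non_mCherry, and none was lower. The signal peptidase subunits led: Sec11c was 6.95-fold (5.89 to 8.13) and 8.0-fold (7.41 to 8.63) higher, and Spcs1 5.71-fold (4.58 to 7.02) and 6.60-fold (5.98 to 7.26). Sec11a, the paralog of Sec11c in the same complex, was at 224 against 185 CPM and 201 against 176 CPM and did not reach 2-fold. Ssr4, a subunit of the translocon-associated complex, was 5.03-fold (4.48 to 5.63) and 5.31-fold (5.0 to 5.63) higher, while Ssr1 and Ssr2 of that complex were within 2-fold. The median log2 ratios of the entry list were 1.29 and 1.09. Later steps had somewhat lower medians, but not a lower share of higher genes throughout. N-glycosylation was higher in 4 and 5 of 11 genes with median log2 ratios of 0.89 and 0.93, and transport from ER to Golgi in 13 and 11 of 23 with 1.20 and 0.87. Without the 5 members that carried another class's markers, 9 of the 11 glycosylation genes were higher in non_mCherry.

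Summed per barcode, the ER folding list took 1.05% to 2.89% of UMIs outside Jchain in control members (median 2.02%) and 0.544% to 5.34% in non_mCherry members (median 1.98%). The median of other barcodes was 0.557% and 0.415%, and all 55 members were above the median of their library. For the translocation list too, all 55 members were above it, with medians of 1.56% and 1.66% against 0.421% and 0.386%.

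**Figure D4:**
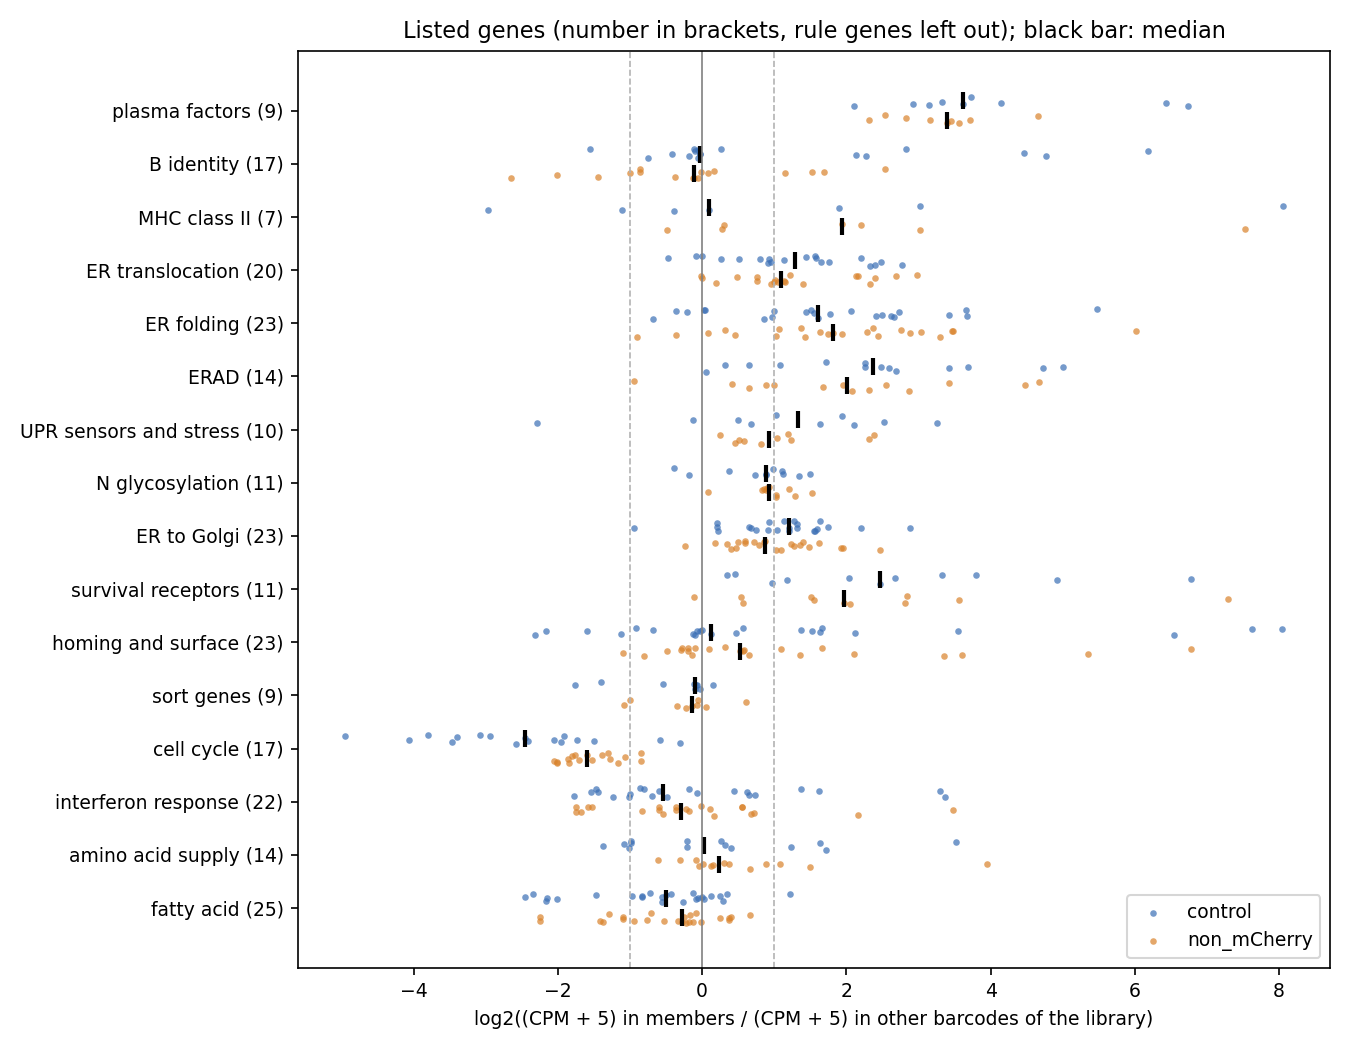
Log2 ratio of (CPM + 5) between members and other barcodes of the same library for each gene of 16 lists, with control above non_mCherry in each row, the median as a black bar and dashed lines at 2-fold. Plasma cell factors, folding, degradation and survival lists lie mostly right of the dashed line in both libraries, and the cell cycle list lies left of 0.

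Sensors of ER stress were less uniform. Of 10 genes of the list, 6 were higher in control and 5 in non_mCherry, 4 in both. Atf6, the membrane-bound sensor, was at 99.4 against 19.3 CPM and 115 against 19.3 CPM, and Ern1 (IRE1), the enzyme that splices Xbp1 RNA, at 62.2 against 16.7 CPM from 5 UMIs and 32.6 against 10.95 CPM from 11 UMIs. Ddit3 (CHOP), the factor tied to stress-induced death, was at 49.7 against 29.3 CPM and 71.1 against 38.1 CPM and did not reach 2-fold. Without the 5 members that carried another class's markers, its log2 ratio in control was 1.03, from the same 4 UMIs. Trib3, one of its targets, had 0 and 1 UMI.

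Of 14 genes for amino acid supply, 4 were higher and 3 lower in control, and 3 higher and 0 lower in non_mCherry. Slc3a2 (CD98 heavy chain), the common subunit of several amino acid transporters, was 11.8-fold (9.86 to 14.1) and 16.1-fold (14.8 to 17.4) higher, while its light chain Slc7a5 had 0 and 4 UMIs. Asns, asparagine synthetase, was at 149 against 41.8 CPM and 88.8 against 28.2 CPM. The fatty acid list, which covers the pathway the series asks about, held 1 higher and 4 lower of 25 genes in control and 0 higher and 5 lower in non_mCherry. Its median log2 ratios over all 25 genes were -0.51 and -0.28, though only 18 and 19 of them reached 20 CPM. The medians of -0.18 and -0.25 given above are over genes that reached 20 CPM, so the 2 sets are not alike. Of 22 interferon response genes, 4 were higher and 1 lower in control, and 2 higher and 1 lower in non_mCherry. Only 8 in control and 7 in non_mCherry reached 20 CPM and could be called. Zbp1 and Ifi27l2a were higher in both libraries and Ifi47 was lower in both. Ifit1, Ifit3, Mx1 and Rsad2, which respond strongly to type I interferon, were at 0 in members of both libraries, and at 3.88 CPM or less in other barcodes, so a lower level would not have been detectable.

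Surface and homing genes separated into a few large ratios and many small ones. Of 23 genes (Sdc1 left out), 8 were higher and 2 lower in control, and 7 higher and 1 lower in non_mCherry. Of the 23, 15 in control and 17 in non_mCherry reached 20 CPM and could be called. Ly6d, a surface marker of the B lineage, had 9 to 48 UMIs per control member (median 14) and 0 to 60 per non_mCherry member (median 15), at 2611 against 4.91 CPM and 2236 against 15.3 CPM. Slamf7, a receptor of plasma and natural killer cells, had 1 to 7 (median 4) and 0 to 10 (median 3), at 535 against 0.761 CPM and 471 against 41.6 CPM. It was seen in 43 of 44 non_mCherry members and in all 11 control members. Cxcr4, the receptor that holds plasma cells in marrow, had 0 UMIs in control members (log2 ratio of -2.31) and 10 in non_mCherry members. The chemokine receptors Ccr10 and Ccr9 of mucosal plasma cells had 0 UMIs in control members and 2 and 1 UMI in non_mCherry members. Other control barcodes had almost none of Ccr10 and Ccr9 either (log2 ratios of -0.03 and -0.07), so these zeros say little.

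The sort marker did not set members apart by level. Kit was at 62.2 CPM in control members and 66.7 CPM in other control barcodes, and at 59.2 and 56.7 CPM in non_mCherry. That level came from 5 and 20 UMIs, in 4 of 11 and 10 of 44 members. A Kit UMI was seen in 56.7% of other control and 36.1% of other non_mCherry barcodes at their greater depth. Of the Kit UMIs, 2 of 5 and 10 of 20 lay in the 5 members that carried another class's markers. Without them, Kit was at 48.8 CPM in control, from 3 UMIs in 3 of 10 members, and at 38.9 CPM in non_mCherry, from 10 UMIs in 6 of 40. Of the lineage antigens, Cd3e, Cd4, Cd8a and Ly6g were at 0 in members of both libraries.

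Members had few cell cycle transcripts. Of 17 genes, 15 were lower in control and 15 in non_mCherry, and none was higher, with median log2 ratios of -2.46 and -1.59. Summed over the list, control members had 0 to 43 UMIs (median 2) and non_mCherry members 0 to 159 (median 3), against medians of 70 and 38 in other barcodes. At least 20 such UMIs were reached by 1 control and 4 non_mCherry members, all of which carried markers of another class, and by 83.0% and 62.4% of other barcodes. At most 5 were seen in 10 of 11 and 32 of 44 members. Mki67, a proliferation antigen, had 3 UMIs in control members, all in 1 barcode of that kind, and 49 in non_mCherry members, of which 28 lay in such barcodes. Without the 5 barcodes, all 17 genes were lower in both libraries, with median log2 ratios of -3.72 and -2.85.

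Over all genes, listed ones included and rule genes left out, 339 were higher in both libraries with at least 50 CPM in members of both. Likewise 389 were lower in both, with at least 50 CPM in the other barcodes of both. How many genes reached that level was not counted, so no share is given. The 15 highest by the smaller of their ratios, at 50 CPM or more, included listed genes (Cd74, Ly6d, Tnfrsf17, Txndc5, Ly6a and Sel1l) and others. Eaf2, which binds elongation factors of the Ell family, was seen in 8 of 11 and 41 of 44 members, at 336 against 0.420 CPM and 577 against 1.58 CPM. Fam46c (Tent5c), a poly(A) polymerase that acts on secretory transcripts in plasma cells, was at 994 against 4.42 CPM and 678 against 5.63 CPM. Epcam, an adhesion protein best known from epithelia, was at 435 against 0.274 CPM and 358 against 2.06 CPM, in 10 of 11 and 38 of 44 members. Of its 35 control UMIs 19 lay in 1 member, without which control members stood at 217 CPM. The calcium channel subunit Cacna1s of skeletal muscle was at 187 against 0.0267 CPM from 15 UMIs in 9 of 11 members, and at 115 against 0.164 CPM from 39 UMIs in 21 of 44. Ctss, a lysosomal protease that processes Cd74, was at 1330 against 22.5 CPM and 802 against 28.8 CPM, and was detected in all 55 members. Chst1, Oosp1, Gm5547 and Serpina3f complete the 15, with log2 ratios of 4.51 to 6.04 in control and 4.50 to 5.41 in non_mCherry.

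The 10 lowest were genes of other marrow lineages: the basophil proteases Prss34 and Mcpt8, the globins Hba-a1, Hbb-bt and Hbb-bs, the neutrophil granule genes Ngp, Camp and S100a9, and the broader genes Ifitm1 and Anxa2. Prss34 had 0 and 2 UMIs in members against 201 and 201 CPM in other barcodes, and Hba-a1 0 and 1 UMI against 210 and 123 CPM. Ifitm1, an interferon-inducible membrane protein of progenitors, had 0 UMIs in control members against 495 CPM, and 35 UMIs in 15 of 44 non_mCherry members, 104 against 696 CPM. Without the 5 members that carried another class's markers, it was at 50.6 CPM in non_mCherry, from 13 UMIs in 11 of 40.

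One gene known from another lineage was present in most members. Prg2, the major basic protein of eosinophil granules, had 1 to 58 UMIs in all 11 control members (median 7) and 0 to 15 in non_mCherry members (median 3), with a UMI in 40 of 44. It stood at 1591 against 161 CPM in control and 477 against 142 CPM in non_mCherry. Other eosinophil markers were near 0: Epx, the eosinophil peroxidase, had 0 UMIs in both libraries and Prg3 had 1 UMI in each. A Prg2 UMI was seen in 8.16% of other control and 4.06% of other non_mCherry barcodes. Without the members that carried another class's markers, Prg2 was at 2068 CPM in control members and 604 CPM in non_mCherry members.

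Set beside each other, the members of both libraries had similar levels for most listed genes. Of 6146 genes with 20 CPM in 1 of the 2 sums, 14.0% were at least 2-fold higher in non_mCherry members and 15.4% lower, with a median log2 ratio of -0.06. No list reached a median of 1 in size. None of 20 translocation genes and none of 11 glycosylation genes reached 2-fold, and of 23 folding genes 1 was higher and 2 lower. The libraries differ in mouse, genotype, induction and depth, which cannot be told apart, and the control sums rest on 11 barcodes.

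Single genes that differed are given first, and the cell cycle list after them. Ly6a (Sca-1), an interferon-inducible surface antigen, had 0 to 46 UMIs per control member (median 11) and 0 to 28 per non_mCherry member (median 5.5). It was at 2213 CPM in control and 888 CPM in non_mCherry members, 2.49-fold (2.06 to 3.01) higher in control, and the ranges overlapped. Ly6c2, another member of that family, was at 5420 and 2034 CPM, 2.66-fold (2.36 to 3.01) higher in control, again with overlapping ranges. In other barcodes Ly6c2 was at 458 and 162 CPM, in the same order, while Ly6a was at 6.18 and 16.8 CPM, in the reverse order. Herpud1 was at 2573 and 1131 CPM, 2.27-fold (1.91 to 2.70) higher in control, and Dnajb9, an ER cochaperone and Xbp1 target, at 273 and 74.0 CPM, 3.69-fold (1.99 to 6.83) higher from 22 and 25 UMIs. Irf4 was 2.42-fold (1.64 to 3.54) higher in control. Prg2 was 3.34-fold (2.63 to 4.24) higher, but 58 of its 128 control UMIs lay in 1 member, without which control members stood at 911 CPM. Ms4a1 (CD20), a surface antigen of mature B cells, was at 137 CPM in control, in 6 of 11 members, and 29.6 CPM in non_mCherry, in 5 of 44.

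In the other direction, Slpi, a secreted protease inhibitor, had 0 to 28 UMIs per control member (median 2) and 0 to 140 per non_mCherry member (median 8). It was at 609 and 2159 CPM, 3.54-fold (2.65 to 4.83) higher in non_mCherry members, and was seen in 9 of 11 and 33 of 44, so 11 non_mCherry members had no Slpi UMI while others exceeded every control member. Of its 49 control UMIs 28 lay in 1 member, without which control members stood at 290.4 CPM. In other barcodes it had the reverse order, 164 CPM in control and 59.5 CPM in non_mCherry. Of 17 cell cycle genes, 8 were at least 2-fold higher in non_mCherry members, and 3 without the 5 members that carried another class's markers. Psip1, a chromatin-bound coactivator, was at 49.7 and 261 CPM, from 4 and 88 UMIs. Stmn1 and the histone gene Hist1h2ap, both of dividing cells, were at 124 and 388 CPM and at 12.4 and 426 CPM. Without the same 5 members, Stmn1 was at 32.6 and 113 CPM and Hist1h2ap at 16.3 and 140 CPM. Prtn3, a granule protease of myeloid progenitors, was among the genes higher in control, at 3804 and 788 CPM, and that order turned when those members were left out, to a log2 ratio of 0.21.

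**Figure D5:**
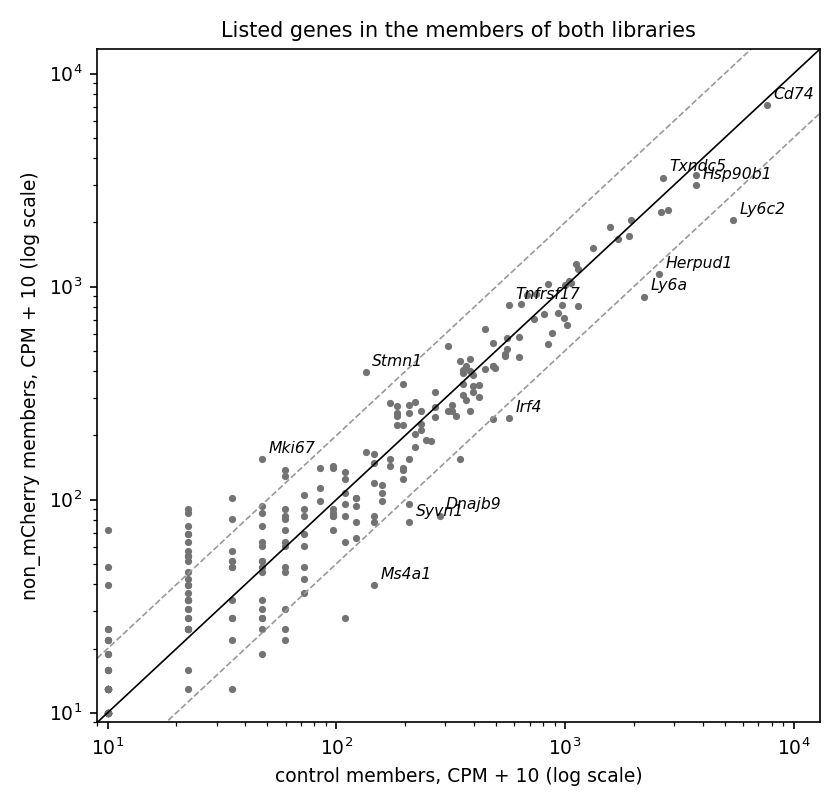
CPM plus 10 of each listed gene in non_mCherry members (vertical) against control members (horizontal), both on log scales, with the line of equality and dashed lines at 2-fold. Of 90 genes above 200 CPM in at least 1 library, 82 lie between the dashed lines, and Ly6c2, Ly6a, Herpud1, Irf4 and Dnajb9 lie on the control side.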

How the data were processed

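The authors deposited, for each library, a matrix of UMI counts per gene and cell barcode with its gene list. Per the submitters' processing notes, Cell Ranger 6.1.2 and mm10 were used. The file headers give software version 3.1.0. Totals were 150702749, 92776556 and 97404871 UMIs in control, non_mCherry and mCherry. The members and the gene lists were chosen with earlier results of these data known. Counts were summed over members and over other barcodes (Python 3.11.15, numpy 2.4.6, scipy 1.17.1) and scaled to 1000000 UMIs outside Jchain (CPM). Ratios are log2((CPM + 5)/(CPM + 5)), and folds are plain quotients with exact intervals. The calculation was tested on simulated data. Named genes are those of the gene and marker lists, the 15 highest and 10 lowest in both libraries (at least 50 CPM) and the 8 furthest apart in each direction between libraries. Of 27998 gene IDs, 27645 matched GENCODE vM21. Doublets were kept and scored with Scrublet (scanpy 1.11.5). Near-identical copies (Ly6, Serpina3, globin and histone families) can share reads, so their single values are uncertain. None of 13 immunoglobulin constant genes matched, so the planned isotype counts were not run.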

Additional observations from a re-analysis of the deposited data

How the results depend on the processing

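The 11 control members held 87522 UMIs, of which 7079 were Jchain and left out of the CPM scale. On that scale a control level near 12.4 CPM is 1 UMI, so single low genes there are not resolved. No paired analysis was possible because each group is 1 library. Of the main counts, shares and list counts recomputed under other settings, 147 stayed within 1.5 times or within their interval and 12 moved. The non_mCherry share moved to 0.787% with Cd79a-positive barcodes out of the denominator. Without the filter on low values, lower genes numbered 3382 in control and 1758 in non_mCherry, and between libraries 2562 were higher and 1440 lower in non_mCherry members. With at least 100 CPM, a setting chosen after seeing the data, 371 genes were higher and 446 lower in control, 280 and 293 in non_mCherry, and 80 and 106 between libraries. The changed filter itself sets how many genes enter these counts. With a pseudocount of 1 CPM, 2 lists instead of 0 had a median of at least 1 in size between libraries, and the cause was not tested. Lists with such a median over other barcodes numbered 8 in control (8 to 9 over the settings) and 7 in non_mCherry (7 to 10). Leaving out the members that carried another class's markers, also chosen after seeing the data, turned the order of Prtn3 between libraries to a log2 ratio of 0.21. Asking for at least 3 of the 4 partner genes turned that of Prg3, with 1 UMI in each library, to 0.67, since its control UMI lay in the 1 member left out. The isotype settings were not run, since no constant gene matched.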
